A study of Mus musculus with 2 samples.

Results

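The cytosolic ribosomal protein genes of the mouse were described in hindbrain taken on postnatal day 0. They were chosen by name: protein-coding genes whose symbol is Rpl or Rps with a number, together with Rplp0, Rplp1, Rplp2 and Rpsa, without the S6 kinase genes and without Rps19bp1. The rule gave 91 of the 43346 mouse genes in the tables, of which 77 were core genes (46 of the large and 31 of the small subunit), 8 were paralogue-like genes with a suffix such as l, l1, al or rt, and 6 were genes that the annotation calls protein-coding although their names mark them as pseudogene copies (-ps).

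The series holds 1 group of 2 total RNA libraries, called replicates 1 and 2 as in the labels. Both came from healthy mice of strain B6NTac;B6NCrl/Lap, with males and females pooled; 15 mice went into replicate 1, and the size of the pool for replicate 2 is not stated. RNA longer than 200 nt was depleted of ribosomal RNA, spiked with synthetic RNA and sequenced as stranded read pairs. The labels describe separate tissue isolates that share their donor identifier. The spread between the libraries may thus be technical in part, and with 1 group no test between conditions was possible.

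The ribosome reads mRNA with its small subunit and joins amino acids in its large subunit, and its proteins are made in matched amounts and assembled with ribosomal RNA in the nucleolus. Their mRNAs are known for a tract of pyrimidines at the 5′ end, the TOP motif, through which mTOR signalling adjusts their translation. Mammalian genomes carry a great number of retrotransposed copies of these genes, most of them pseudogenes, so a read from such an mRNA often matches several places. In a growing brain, making ribosomes is part of building neurons and glia.

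Expected counts, the authors' estimates of fragments per gene, summed to 53617712 on mouse genes in replicate 1 and 76299126 in replicate 2. Levels are given as TPM, the counts divided by effective length and scaled to 1 fixed total in every library. For transcripts well above the mean fragment length of 314 nt and 296 nt, effective length is close to transcript length less that mean; shorter ones keep a small positive value. All 10 hindbrain marker genes reached 1 TPM in both libraries, while 1 of 7 forebrain genes did (Neurod6, 6.77 and 4 TPM). All 4 neuronal genes and all 5 genes of dividing cells reached it too. The 7 erythroid genes summed to 938 and 854 TPM, and 5 of them reached 1 TPM in both libraries. In whole tissue, fewer cells of a type and less RNA per cell cannot be told apart.

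All 77 core genes were detected at 1 TPM or more in both libraries, against 11725 of 21461 protein-coding genes, or 54.6%. The median core gene stood at 135 TPM in replicate 1 and 90.6 TPM in replicate 2, the median protein-coding gene at 2.37 and 1.72 TPM. The 77 genes of the mitochondrial ribosome, which translates the mitochondrial genome, had medians of 11.1 and 8.62 TPM. Of the core genes, 19 were among the 100 most abundant protein-coding genes by mean TPM and 53 among the first 500. With the paralogues and annotated copies, 85 of the 91 genes were detected, and the median log2 level (log2 of mean TPM plus 0.1) was 6.44, beside 1.12 over all protein-coding genes.

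The 91 genes took 1.038% of the mouse counts in replicate 1 (95% Wilson interval 1.035 to 1.041) and 1.117% in replicate 2 (1.115 to 1.119); these intervals cover counting error only. They took 1.53% and 1.11% of TPM. Which library was higher thus depended on the scale. The 9852 mouse genes with an effective length under 100 nt held 63.8% of all TPM in replicate 1 and 75.5% in replicate 2, and TPM always sums to the same total. With TPM rescaled over longer genes only, the median over the 71 core genes of that length was 384 and 380 TPM.

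**Figure D1:**
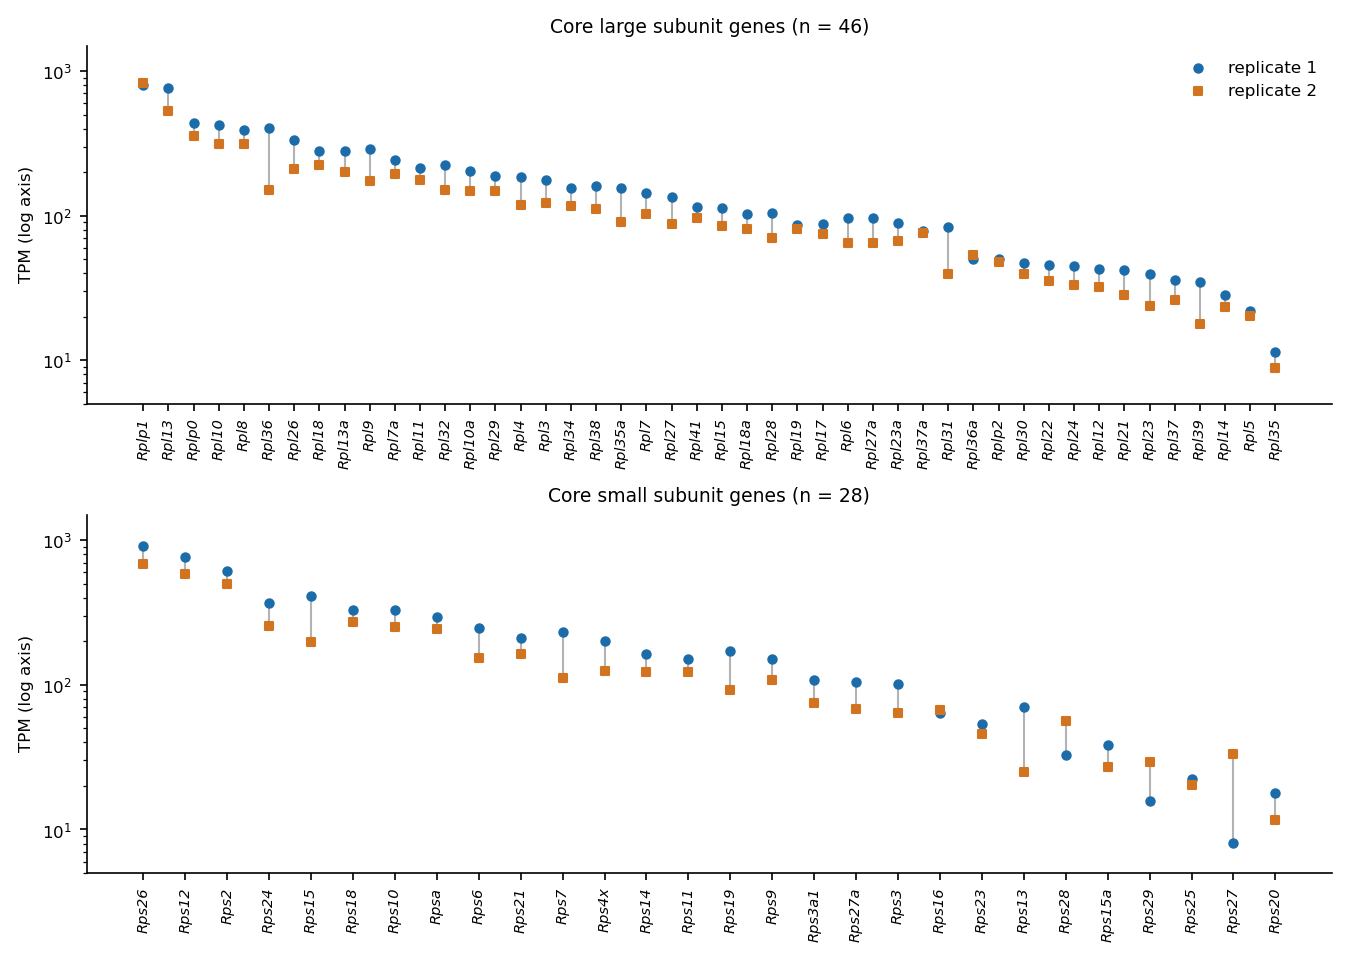
TPM of 74 of the 77 core genes in replicate 1 (blue circles) and replicate 2 (orange squares) on a log axis, ordered by mean TPM, large subunit above and small subunit below. Grey lines join the 2 libraries of a gene. Of all 77 core genes, 70 had the higher TPM in replicate 1. Rps27, Rps13 and Rpl36 have the longest lines.

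Although their proteins enter the ribosome in matched numbers, the core genes did not stand at a common mRNA level in these tables. Leaving out Rps27, which had 1.00 count in replicate 1, levels ran from 11.5 to 912 TPM in replicate 1 and from 8.82 to 826 TPM in replicate 2. The upper quartile was 4.93 times the lower one in replicate 1 and 3.802 times in replicate 2. The order of the genes was nearly the same in both libraries (Spearman rho 0.97 across 77 genes, which share their transcript models and so part of any error in length). The plot of TPM by gene shows a continuous slope without a break between a high and a low class.

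Among the small subunit genes the highest was Rps26, whose protein lies where mRNA leaves the ribosome, with 912 TPM in replicate 1 and 680 TPM in replicate 2. Next came Rps12, a protein of the beak of the small subunit, with 760 and 582 TPM. Rps2, at the mRNA entry channel, had 609 and 498 TPM. By TPM replicate 1 was the higher in each of these 3 genes, but by counts scaled to library size replicate 2 was, with log2 ratios of 0.26, 0.27 and 0.24. Rpsa, also known as a laminin receptor, had the most counts of all members, 37443 and 62718, but over an effective length of 1547 nt in replicate 1 they came to 296 and 242 TPM.

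Among the large subunit genes, those of the P stalk, which recruits the elongation factors, stood at very different levels. Its small acidic protein gene Rplp1 had 806 and 826 TPM, the highest mean of all 91 genes. Rplp0, the stalk's base, had 434 and 356 TPM from 36916 and 62224 counts. Rplp2, the partner of Rplp1 in the stalk, had only 49.9 and 47.7 TPM from 2481 and 5214 counts, where Rplp1 had 11963 and 27230 counts. The effective length in replicate 1 was 607 nt for Rplp2 and 181 nt for Rplp1. The gap in TPM thus includes this difference in modelled length, whose error the spread between the libraries does not measure. Rpl13 had 760 and 528 TPM, and Rpl10, which joins the large subunit last, 422 and 311 TPM. By counts Rps2 (33911 and 56819) and Rpl13 (29167 and 42343) followed Rpsa and Rplp0.

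Rpl10 is on the X chromosome with Rps4x, Rpl36a and Rpl39, and these 4 genes ranged from 34.8 to 422 TPM in replicate 1 and from 17.7 to 311 TPM in replicate 2. Rps27a, which is made as a fusion with ubiquitin, had 105 and 68.0 TPM. Core genes lay on 19 chromosomes, 14 of them on chromosome 7.

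The median small subunit gene had 151 and 108 TPM and the median large subunit gene 114 and 86.4 TPM. On the log2 scale the small subunit median lay above the large one by 0.41 in replicate 1 and 0.33 in replicate 2 (mean 0.37 ± 0.06, SD, n = 2). Adding the TPM of near-identical gene copies, described next, turned this difference to -0.13, so the order of the subunits depended on whether copies were added. The summed TPM takes in both the reads on copies and the model lengths of the copies. Of the 11 core genes with the most on copies, 9 belong to the large subunit. Rps3a1, whose symbol fits no suffix class, was placed in the core; without it the difference was 0.40.

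Sequence identity set how far single levels can be read. The coding transcripts of the members were compared with those of every other pseudogene, protein-coding gene and long intergenic RNA in the annotation, and 455 genes matched a member at 95% identity or more over at least 100 nt and 50% of their own length. Of these copies, 450 were annotated pseudogenes. Members were not counted as copies of each other, so sums with copies leave out Rps27rt for Rps27 and Rpl10-ps3 for Rpl10. Only 153 had any count, and together the copies held 36167 counts in replicate 1 and 52899 in replicate 2, or 6.50 and 6.21 per 100 counts of members. The 5 with most counts held 63.8% and 68.5% of that, so the copies mattered for a few genes and hardly at all for most.

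How far reads can separate such pairs is seen in the first 60 coding bases of Rps27, a zinc-binding small subunit protein, of its intron-less copy Rps27rt and of the older paralogue Rps27l. They are shown from the transcripts of the annotation, with capitals at the bases that differ between Rps27 and Rps27l. Rps27 lies at chr3:90212522-90213651 on the minus strand (mm10), Rps27rt at chr9:114982366-114982739 on the minus strand and Rps27l at chr9:66946086-66949516 on the plus strand.
Rps27: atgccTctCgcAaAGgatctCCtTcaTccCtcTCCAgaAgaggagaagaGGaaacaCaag
Rps27l: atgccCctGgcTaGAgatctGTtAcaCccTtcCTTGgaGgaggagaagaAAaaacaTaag
Rps27rt: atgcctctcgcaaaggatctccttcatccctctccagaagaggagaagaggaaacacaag
Rps27 and Rps27l differed at 18 of these 60 bases. Rps27rt matched Rps27 at all of them and over the whole coding sequence of 252 nt.

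The same holds for Rpl12, a protein at the base of the stalk (chr2:32961559-32965345, plus strand), and Gm10275 (chr10:29698746-29699380, minus strand), a transcribed processed pseudogene. Over the 495 coding bases of Rpl12 they have no mismatch, and the first 60 read the same in both.
Rpl12 and Gm10275: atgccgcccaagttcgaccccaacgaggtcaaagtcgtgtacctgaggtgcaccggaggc
Rpl36a and its paralogue Rpl36al, by contrast, differed at 11 of their first 60 bases, shown in capitals, and at 39 of 318 overall.
Rpl36a: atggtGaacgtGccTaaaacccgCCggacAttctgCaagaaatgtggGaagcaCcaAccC
Rpl36al: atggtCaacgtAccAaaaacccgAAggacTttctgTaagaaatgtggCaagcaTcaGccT

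For 11 core genes these copies, none of them a member, held at least 10% of the summed counts in both libraries. For 4 of the 11, Rpl12, Rpl5 and Rpl35 among them, they held more than the gene itself. Rps27 is not among the 11, although the member Rps27rt held more counts than Rps27 in both libraries. Rpl12 had 2758 counts in replicate 1 and 4211 in replicate 2, its copy Gm10275 8666 and 15365. Rpl5, which with Rpl11 and 5S ribosomal RNA binds the p53 regulator Mdm2, had 2348 and 3428 counts. Gm15500, identical to it over all 891 coding bases, had 6988 and 8655. In both pairs the copy had more counts than the gene in each library.

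Rpl35, at the rim of the tunnel through which the new protein leaves, had 595 and 948 counts beside 1839 and 2769 on Gm2000. Gm2000 is annotated as protein-coding under another name and differs from Rpl35 at 1 of 369 coding bases. Rpl41, one of the smallest known proteins, had 2272 and 4172 counts beside 2064 and 5569 on Gm10076, annotated as a long intergenic RNA with 99.5% identity over 383 nt.

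Because TPM adds up, gene and copies can be summed. Rpl12 went from 42.8 and 32.2 TPM alone to 372 and 307 TPM with its copies, and from rank 65 to rank 11 of the 91. Rpl35 went from 11.5 and 8.82 TPM, the lowest of the large subunit core, to 183 and 121 TPM and from rank 83 to 34. Rpl41 went from 115 and 96.0 TPM to 471 and 476 TPM and from rank 41 to 6. Rpl5 went from 21.9 and 20.2 TPM to 143 and 93.5 TPM. These sums are upper values for the gene, since the share that the copies themselves give cannot be told apart where the sequences are identical. They also depend on the effective lengths of the copies, by which the copies' counts were divided. In counts, Rpl41 went from 2272 and 4172 alone to 4336 and 9741 with its copy, a smaller rise than in TPM.

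**Figure D2:**
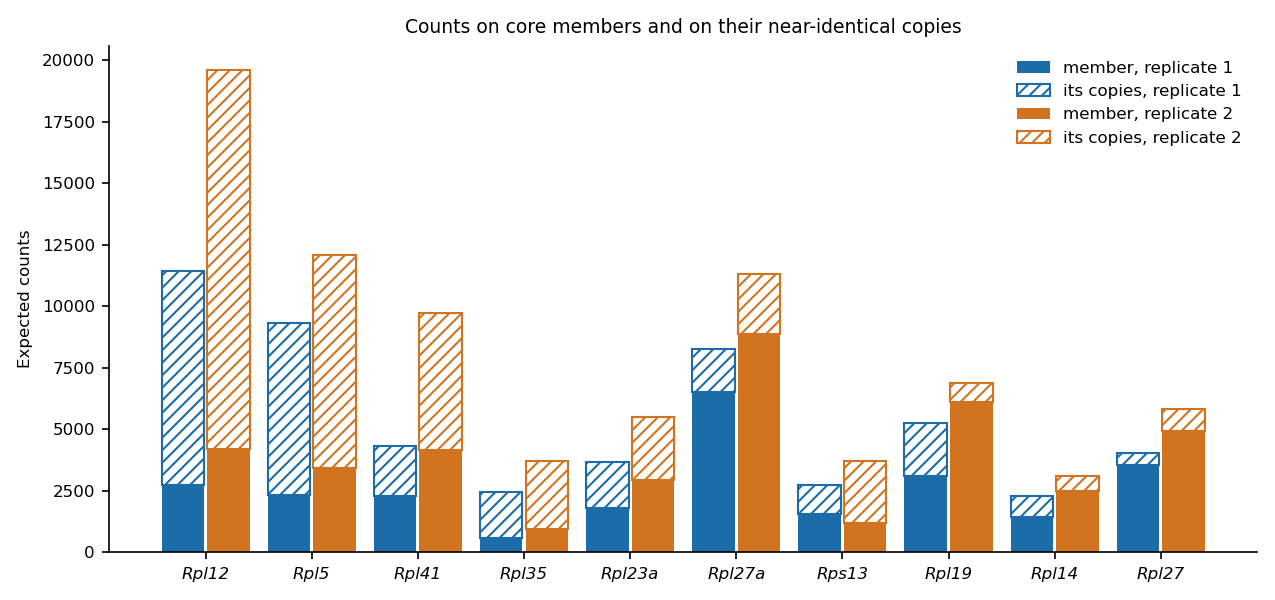
Expected counts on 10 of the 11 core genes whose near-identical copies held at least 10% of the summed counts in both libraries (filled) and on those copies (hatched, stacked above), replicate 1 in blue and replicate 2 in orange. For Rpl12, Rpl5 and Rpl35 the hatched part is the larger in both libraries.

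The other genes in the plot of counts on genes and copies were Rpl23a, Rpl27a, Rps13, Rpl19, Rpl14 and Rpl27. Rpl23a, also at the tunnel rim, had 1805 and 2935 counts beside 1547 and 2531 on Rpl23a-ps3. Rpl27a had 6524 and 8859 beside 1736 and 2461 on Gm7536. Across the core, adding copies narrowed the spread of levels: the SD of log2 TPM over the 77 genes was 1.52 and 1.40 alone and 1.41 and 1.29 with copies, and the ratio of upper to lower quartile fell to 3.05 and 2.97. The narrowing was thus partial.

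Of the 91 genes 26, 17 of them core, had whole expected counts in both libraries (within 0.005), and 5 of these 26 had no count in either library. The same share over all genes was not computed, so 26 cannot be called low or high here. A whole count above 0 is what a gene shows when none of its reads was divided with another. Pseudogenes that carry the name of a member, 249 in all, held 2.22 and 1.77 counts per 100 counts of their parents. The most went to those of Rpl23a, Rps13, Rpl19 and Rpl14. Among the core genes without a near-identical copy in the annotation were Rps9, Rps21 and Rps20.

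Of the core genes, 6 had an effective length under 100 nt in replicate 1. Rps27 was modelled with 255 nt, which left effective lengths of 1.52 nt and 2.40 nt. It had 1.00 count in replicate 1 and 13.2 in replicate 2, or 8.01 and 33.3 TPM, and the deposited interval for replicate 1 ran from 0.333 to 37.7 TPM. Scaled to library size the ratio was 9.13 with a 95% counting interval of 1.37 to 388, so its level is close to unmeasured here. Its identical copy Rps27rt, whose model is longer, had 261 and 153 counts and 55.7 and 12.4 TPM.

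Rps29, another zinc-binding small subunit protein, had 99 and 460 counts and 15.8 and 29.3 TPM. Rps28, near the mRNA exit, had 215 and 858 counts and 32.7 and 56.1 TPM. Both were higher in replicate 2 on either scale. Rps21 had 210 and 164 TPM, and Rpl38, which in mouse embryos is needed to translate a set of Hox mRNAs, had 161 and 111 TPM from 734 and 1354 counts. Rpl36 went the other way with 406 and 150 TPM, from 3011 and 2695 counts.

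At the other end were genes whose models are long for a ribosomal protein. Nearly all counts of Rps20 lay on a coding transcript of 3706 nt, and it had 17.9 and 11.5 TPM from 4857 and 6458 counts. Of the counts of Rps15a, 89.7% and 90.5% lay on a coding transcript of 3721 nt, and it had 38.4 and 26.9 TPM. Both genes stood low by TPM while their counts were above those of many genes with far higher TPM. Rps25 was not of this kind: with a model of only 683 nt, it had 22.4 and 20.2 TPM from 677 and 1291 counts.

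In the median member the transcripts annotated as protein-coding held 99.5% of the gene's TPM, and 67 of the 77 core genes had at least 90% in both libraries. The exceptions were few. Rpl36a had 19.4% and 15.2% of its TPM on coding transcripts, and a 452-nt transcript annotated for nonsense-mediated decay held 71.4% and 81.5%. Rpl11, the partner of Rpl5, had 23.2% and 21.1%, with a processed transcript of 397 nt at 76.0% and 78.0%. Since that transcript has an effective length of 83.6 nt in replicate 1, its share of the counts was smaller, 34.9% and 40.6%.

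Rps6, the classical substrate of the S6 kinases, had 38.02% and 29.7% of its TPM on coding transcripts and 58.9% and 66.2% on a processed transcript of 639 nt. For Rpl5 the coding share was 64.4% and 39.0%, and a retained-intron transcript of 854 nt went from 20.1% to 55.9%. These 4 genes stood in the same order of coding share in both libraries.

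**Figure D3:**
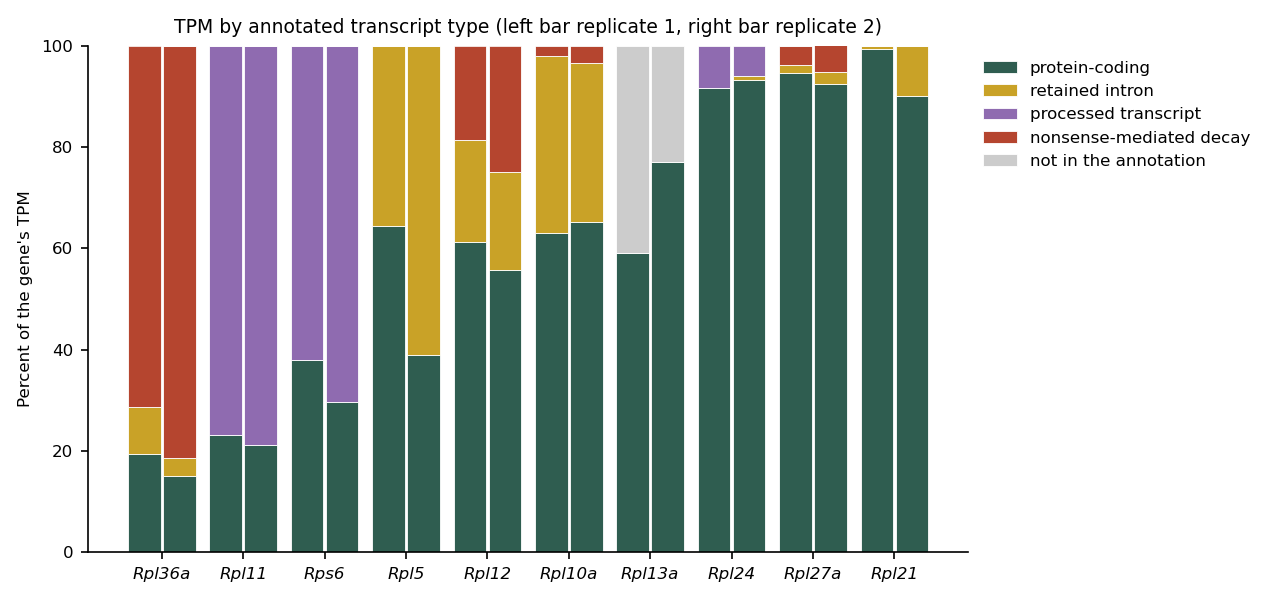
Share of each gene's TPM by annotated transcript type for the 10 plotted core genes with the lowest mean coding share, left bar replicate 1 and right bar replicate 2. Rpl36a, Rpl11 and Rps6 are mostly non-coding in both libraries, while the coding share of Rpl5 goes from 64.4% to 39.0%.

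Between the libraries most members differed little once counts were scaled with TMM, a normalization that takes the bulk of genes as equal. The log2 ratio of replicate 2 over replicate 1 had a median of 0.13 over the 85 members whose mean count reached 10, and 56 of them were above 0. By deposited TPM, with its different total of short RNAs, the median was -0.44 instead. Over all 17632 mouse genes with that count the median was 0.01, and over the mitochondrial ribosomal protein genes it was 0.09. The middle 50% of members ran from -0.07 to 0.29. Scaling by spike-in totals moved the median of all genes by 0.10, so differences of that size depend on the scaling.

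Past 1.5-fold, 7 of the 85 members were higher in replicate 2, where 14.7% of all genes were, and 5 were higher in replicate 1, where 9.88% were. Where the mean count reached 200 it was 6 and 5 of 83 members, or 7.23% and 6.02%, beside 5.08% and 3.48% of all genes. Among those higher in replicate 2 at that count were Rps29, Rps28, Rplp1, Rps16 and Rpl36a. Those higher in replicate 1 were Rpl10-ps3, Rps27rt, Rps13, Rpl36 and Rps27l, the last of which, with Rpl36, did not pass with spike-in totals. Erythroid genes moved the same way as the first group: 4 of 7 were past 1.5-fold higher in replicate 2. The mean fragment was also shorter in that library, 296 nt against 314 nt, and the part of either in these differences was not tested.

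Short genes had the wider differences. Rps29 had a log2 ratio of 1.69 and Rps28 one of 1.48, while Rpl36 fell by 0.67 on the log2 scale. In absolute size the median log2 ratio was 1.07 for the 6 core genes with an effective length under 100 nt, 0.27 for 21 genes of 100 to 300 nt, 0.22 for 25 genes of 300 to 600 nt and 0.10 for 25 longer ones. Without Rps27 the median over the other 5 shortest genes was 0.67. Across the 77 core genes the ratio itself went down with effective length (Spearman rho -0.34, or -0.32 over 76 without Rps27, a description of 2 libraries whose genes share fragment length and depth).

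**Figure D4:**
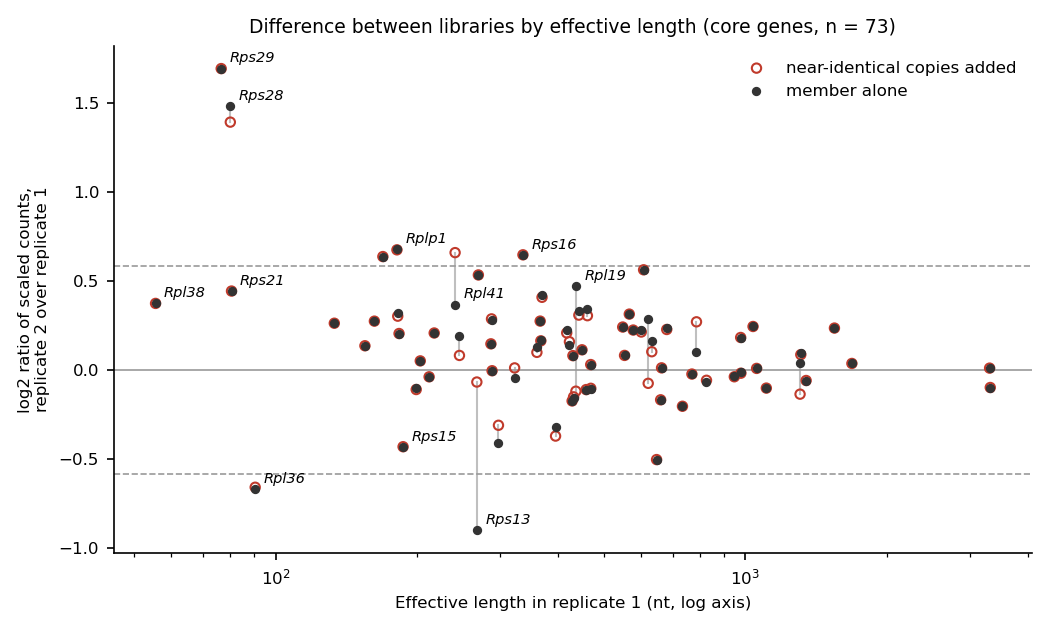
Log2 ratio of scaled counts, replicate 2 over replicate 1, against effective length (log axis) for 73 of the 76 core genes whose mean count reached 10; black points are the gene alone, red circles the gene with its near-identical copies, joined by grey lines, and dashed lines mark 1.5-fold. Rps29, Rps28 and Rpl36 lie far out at short lengths, and Rps13 moves close to 0 when copies are added.

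Some of the other ratios were matched by an opposite one in a copy. Rps13 went from 1554 counts to 1185 while Rps13-ps1, which differs from it at 2 of 453 coding bases, went from 1187 to 2535. The log2 ratio was -0.90 for Rps13 alone and -0.07 for the sum. Rpl19 went from 3089 to 6101 counts while Rpl19-ps11 went from 2146 to 764, and its ratio changed from 0.47 to -0.12 in the sum. For Rpl14 the ratio was 0.29 alone and -0.07 with its copy.

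The sum did not bring every gene to 0. Of the 77 core genes, 68 were within 1.5-fold alone and 69 with their copies. Rpl41 had a ratio of 0.37 alone and 0.66 with Gm10076. Rplp1 (0.68 alone, 0.67 summed), Rps16 (0.65) and Rpl36a (0.64) had few or no counts on copies and kept their ratio. In TPM these 3 genes were nearly level between the libraries: Rps16 had 64.2 and 67.2 TPM, Rpl36a 49.9 and 53.6 TPM. The median member was lower in replicate 2 by TPM (log2 ratio -0.44), so relative to the other members these 3 were higher there on this scale too.

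The paralogue-like genes ranged from no count to levels within the range of the core genes, as a group with a median of 16.045 and 9.29 TPM. The 2 testis-type paralogues had no count in either library: Rpl39l, which allows at most 0.101 and 0.048 TPM (3 counts), and Rpl10l, which allows 0.052 and 0.025 TPM. Their parents Rpl39 and Rpl10 had 34.8 and 17.7 TPM and 422 and 311 TPM. Rpl3l, the striated muscle form of Rpl3, had 0 counts in replicate 1 and 29 in replicate 2 (0.24 TPM). Scaled to library size, the 29 counts were 6.79-fold above the 3 counts that a count of 0 allows, with counting error on the 29 left out. Rpl3 itself, near the peptidyl transferase centre, had 177 and 122 TPM.

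The others were expressed at measurable levels. Rpl22l1 had 44.2 and 22.2 TPM beside 45.6 and 35.5 TPM for its parent Rpl22, close in replicate 1 only, whereas Rpl36al with 22.6 and 19.0 TPM stood below Rpl36a at 49.9 and 53.6 TPM. These pairs are unlike enough for reads to tell apart (74.2% and 87.7% identity of the aligned coding bases). Rps27l, known as a p53 target, had 28.2 and 11.7 TPM. Rpl7l1, a relative of Rpl7, had 9.45 and 6.91 TPM beside 144 and 102 TPM for Rpl7.

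Of the 6 annotated copies, Rpl36a-ps1, Rpl9-ps1 and Rpl36-ps4 had no count. Rpl10-ps3, identical to Rpl10 over all 642 coding bases, had 2385 and 1292 counts and 68.0 and 17.5 TPM, the largest fall among them (log2 ratio -1.39). Rps12-ps3 had 281 and 497 counts, and Rpl9-ps6 had 103 and 138. With identical coding sequence the counts of Rpl10-ps3 cannot be assigned with certainty to the copy or to the parent.

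Other genes of the same machinery, from lists set by name, were described beside them. Ribosomal proteins outside the naming rule were at core levels: Rack1, a scaffold on the small subunit, had 251 and 184 TPM, and Fau, made as a fusion with a ubiquitin-like protein, had 165 and 147 TPM. Of 16 elongation factors and other genes with TOP mRNAs, all were detected, from Nap1l1 with 10.5 and 7.43 TPM, Pabpc1 with 19.96 and 14.3 TPM and Eif4b with 33.6 and 21.4 TPM to Eef1g with 190 and 103 TPM, Eef2 with 577 and 414 TPM and Eef1a1 with 1540 and 1079 TPM. The median was 50.5 and 30.8 TPM, and none of the 16 passed 1.5-fold between libraries.

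Factors that assemble ribosomes were lower. All 20 were detected with a median of 5.89 and 4.56 TPM, the highest being the nucleolar genes Npm1 with 50.9 and 27.4 TPM and Nop56 with 33.0 and 20.9 TPM, and then Eif6 with 29.4 and 21.1 TPM. The lowest were Gnl3, Dkc1 and Ltv1, with mean levels of 2.36, 2.46 and 2.59 TPM. Pno1 alone passed 1.5-fold (log2 ratio 0.65).

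For RNA polymerase I, which transcribes the ribosomal RNA genes, 9 of 10 genes were detected in both libraries. Rrn3 had 21.9 and 13.7 TPM, Ubtf 17.8 and 10.3 TPM and Polr1d 15.0 and 10.3 TPM at the top. Polr1e, with 0.95 and 1.58 TPM, missed the limit in replicate 1 and was past 1.5-fold (log2 ratio 0.86); Taf1b (2.80 TPM) and Nolc1 (4.92 TPM) were the next lowest by mean.

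All 11 genes of mTOR and TOP translation control were detected, with a median of 9.46 and 7.85 TPM and none past 1.5-fold. The cap-binding Eif4e was highest with 25.03 and 15.97 TPM, followed by Tsc2 and Rptor with means of 17.5 and 15.1 TPM. The lowest were Eif4ebp2 with 3.41 and 2.26 TPM, Eif4ebp1 and Rps6kb2. Of 8 genes of surveillance 7 were found by symbol, all detected. Hbs1l and Mdm4 led with 13.9 and 13.6 TPM on average, then Mdm2 with 9.45 TPM, and Trp53, Pelo and Nemf were lowest with 8.63, 2.92 and 2.74 TPM. Pelo and Rps19bp1 passed 1.5-fold in opposite directions (log2 ratios 0.66 and -0.67).

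Many ribosomal protein genes also house small nucleolar RNAs, guides of ribosomal RNA modification, in their introns. The annotation placed 58 such genes inside 30 of the 77 core genes, on the same strand. Rpl4 held 5, Rpl13a 4, and Rps12, Rpsa, Rpl7a, Rpl17, Rpl23a and Rpl5 3 each. The hosts had a median of 96.5 and 67.1 TPM and the other 47 core genes one of 156 and 108 TPM. The small RNAs themselves, at most 203 nt long, lie near or under the size selection, and 3 of 58 had any count (45 and 122 counts in all). Rpl13a had 280 and 201 TPM, Rpl4 184 and 119 TPM and Rpl17 87.3 and 75.03 TPM.

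The start sites were examined for the pyrimidine tract named above, here a C followed by at least 6 further C or T beginning within 20 bases of the RefSeq start (GRCm38.p6). Of the 77 core genes 57 matched the RefSeq promoter table, and 33 of these, 57.9%, had such a tract at a listed start, beside 23.6% of 26960 other genes. Those other genes were all the rest of the promoter table, not filtered by type or level. Shown are the 10 bases before and 20 bases from the start for genes that carried results above, with the tract in capitals.
Rpl35: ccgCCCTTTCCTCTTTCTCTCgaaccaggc
Rpl27a: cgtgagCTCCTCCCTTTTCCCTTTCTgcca
Rps27: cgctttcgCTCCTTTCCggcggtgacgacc
Rpl38: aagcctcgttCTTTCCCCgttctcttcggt
Rplp2: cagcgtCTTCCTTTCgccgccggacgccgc
The windows lie at chr2:39005112-39005141 (minus strand) for Rpl35, chr7:109519185-109519214 (plus) for Rpl27a, chr3:90213629-90213658 (minus) for Rps27, chr11:114668570-114668599 (plus) for Rpl38 and chr7:141447641-141447670 (plus) for Rplp2. Each covers the end of the promoter and the first bases of the transcript.

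The tract was longest in Rpl27a, at 20 bases, among these 5. In Rpl38 it began at the first transcribed base, and in the others between 2 and 7 bases before it. Core genes with a tract had a median of 161 and 111 TPM (n = 33) and those without one 98.8 and 71.1 TPM (n = 24). The ETS factor core CCGGAAG, searched on both strands over 250 bases before to 50 after the start, was in 24 of 57 core genes, 42.1%, and in 9.86% of other genes. The YY1 core AAGATGG was in 15.8% and 7.26%, the E-box CACGTG in 10.5% and 8.09%, and TATAAA in 10.5% and 15.7%. A match only says that these letters stand in the window.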

How the data were processed

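Per the deposited file notes, the authors quantified alignments to mm10 with GENCODE release M4; the aligner and quantifier were not given in the sources used here. The expected counts were deposited by the authors as fragment estimates that need not be whole, with no scaling. The TPM and posterior mean TPM were deposited by the authors scaled to 1 total over all rows, spike-ins and short RNAs included. The interval bounds around TPM, a signal-type column, were deposited by the authors without a stated level. Symbols, types and coordinates came from GENCODE M21 (mm10), and start sites from RefSeq (GRCm38.p6).

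Counts were rounded and scaled with TMM (edgeR 4.0.16, R 4.3.3, prior count 2), over genes whose mean count reached 10; DESeq2 1.42.0 size factors were an alternative. The script was tested on simulated counts. Levels used log2(TPM + 0.1). With 2 libraries of 1 group, no p-value was computed. Copies were found with blastn 2.17.0. Of 382 member transcripts 19 were not in the M21 annotation and were not counted as coding. Precision is set by 53617712 and 76299126 counts, and a count of 0 allows 3 counts.

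Genes named were the 8 highest and 8 lowest by mean TPM, all with an effective length under 150 nt, paralogues with their parents, the 4 largest log2 ratios up and down where the mean count reached 200, the 5 highest counts, the 4 lowest coding shares, the 4 with most named-pseudogene counts, the 4 with most snoRNA genes, and the stalk genes with Rps27a, plus the 3 highest and lowest of each list. Rps20, Rps15a, Rps25, Rps16, Rps4x and Rps9, genes named for their copies, snoRNA genes, chromosome or start windows outside this rule, and the 10% limit on copies, were chosen after their values were seen. The members and lists were chosen with earlier results of these data known. Some items that this rule names are not reported here.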

Additional observations from a re-analysis of the deposited data

How the results depend on the processing

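Of the 11 results, all but the counts of named pseudogenes were recalculated with both libraries. Of these 56 recalculations, 43 stayed within the spread between libraries, or within 1.5 times for counts, 12 moved further and 1 reversed. With the near-identical copies added, an alternative chosen after seeing the data, the small minus large subunit difference reversed from 0.37 to -0.13, the median log2 level of members moved from 6.44 to 6.89 and their share of counts from 1.08% to 1.15%. With TPM rescaled over effective lengths of at least 100 nt, the median level moved to 8.25 and the share of TPM from 1.32% to 4.26%, and members 1.5-fold higher in replicate 1 went from 5 to 3. Members of that effective length only gave 3 as well and a subunit difference of 0.50. Spike-in totals also gave 3. Deposited TPM gave 26 higher in replicate 1, 3 in place of 7 higher in replicate 2, and a median log2 ratio of -0.44 in place of 0.13. Among nuclear protein-coding genes alone the share of counts was 1.29%.

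With replicate 1 alone and then replicate 2 alone, the median level was 6.69 and 6.23, the subunit difference 0.41 and 0.33, the share of TPM 1.53% and 1.11%, the share of counts 1.04% and 1.12%, the coding share 99.7% and 99.2%, named pseudogenes 2.22 and 1.77 per 100 counts, and the genes detected 85 in each. Leaving out 1 of 2 libraries cannot move a mean past their SD, so this is no check of stability. The mean count reached 200 in all core genes other than Rps27. Single libraries were lower: Rps29 had 99 counts in replicate 1. The deposited interval of Rps28 in replicate 1 ran from 30.1 to 66.9 TPM. Replicates 1 and 2 belong to 1 group, so no paired analysis was possible because no second group shares their numbers.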
